A study of Bos taurus with 8 samples.

Results

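The 2 libraries described here were made from the intercaruncular part of the uterus and from the parenchyma of the mammary gland of cattle, which are among the pairs of tissues with the fewest loci far apart in transcript level in the series. Loci of this pair were taken from the deposited table of transcript levels where they carried an Ensembl transcript identifier, spanned at least 300 bases and reached an FPKM (fragments normalised to transcript length and to the mapped fragments of the library) of at least 1 in either library. By this rule 13812 of the 36801 loci in the table were members, which is 60.6% of the 22808 loci with an identifier and the span.

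The study was made to relate DNA methylation to transcript levels, and its RNA-Seq part held 8 tissues with 1 library each. Beside the pair, these were nucleated blood cells, whole testes, frontal cortex, rumen, abomasum and ileum. The labels of the RNA libraries give the tissue and no sex, age or genotype. For tissues of the same names used for methylation, the supplement of the study lists an adult female for the uterus and a juvenile female for the mammary gland, from the Hereford cow Dominette and animals related to it. Whether the RNA came from the same animals is not given in the sources used here. No treatment is named for any tissue. With 1 library per tissue there was no replicate check and no test was run, so the differences below include those between animals, ages, sampling and depth. The values are also those of bulk tissue, in which fewer cells of a type and less RNA per cell cannot be told apart.

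Both organs are built of epithelium embedded in stroma and vessels, and both respond to ovarian steroids. The intercaruncular endometrium is the gland-bearing lining between the caruncles, the sites at which the placenta attaches in ruminants. The parenchyma of the mammary gland holds the ducts and, during pregnancy and lactation, the secretory alveoli, whose epithelium makes the caseins, the main proteins of milk. The deposited table does not pair its identifiers with gene symbols and the RefSeq gene table used here matched 0 of them, so loci are described by position, level and tissue profile, and the tissues could not be checked against marker genes.

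The depth recovered from the values of short loci, as scaled by the authors' software, was 10175000 reads in the uterus and 6082000 in the mammary gland, the lowest of the 8 libraries. The other 6 ranged from 7547000 reads in the ileum to 15610000 in the rumen. At 1 FPKM, a transcript of 1000 bases had 7.40 reads in the uterus and 4.42 reads in the mammary gland. A count of 0 on such a transcript allows an FPKM of up to 0.406 in the uterus and 0.679 in the mammary gland, for counting error only. On a transcript of 100 bases, a single read was worth 472 FPKM in the uterus and 789 FPKM in the mammary gland, so a high FPKM at a locus of very short transcripts can rest on few reads.

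Most members were transcribed in both organs. An FPKM of at least 1 was reached in both libraries by 11780 members (85.3%), in the uterus only by 1083 and in the mammary gland only by 949. In the mammary gland 360 members were listed at 0, and in the uterus 198. The members nearest to the minimum had, in the uterus and the mammary gland, 1.001 and 0 FPKM, 1.0016 and 0.487 FPKM, and 0.0672 and 1.0018 FPKM. Just outside it stood loci at 0.529 and 0.9989 FPKM, 0.9997 and 0.333 FPKM, and 0.9999 and 0.952 FPKM.

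To describe how far the organs lay apart, the log2 ratio of FPKM + 1 in the uterus to that in the mammary gland was taken for each member. A positive value is higher in the uterus. The pseudocount of 1 makes the ratio smaller than that of the FPKM values themselves where levels are low. The median ratio was 0.02, the quartiles were -0.43 and 0.49, and 10328 members (74.8%) lay within 2-fold. The central 90% of members ran from -1.80 to 1.96, and the extremes were -11.51 and 10.79. When both libraries were rescaled to the same summed FPKM without mitochondrial loci, the median moved to 0.25, because the summed FPKM of the uterus was 0.836 of that of the mammary gland.

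A difference of at least 4-fold on FPKM + 1 was taken to separate the organs, and it was met by 1215 members (8.8%). Of these, 657 (4.76% of members) were higher in the uterus and 558 (4.04%) in the mammary gland. These counts depended on how low levels were treated, with 1183 and 1039 loci at a pseudocount of 0.1 and 297 and 288 among members with at least 1 FPKM in both libraries. Separated loci were counted by class of level. By the higher of both levels, 3.25% of 3358 members from 1 to 5 FPKM were separated, 9.14% of 5556 from 5 to 20 FPKM, 10.6% of 4080 from 20 to 100 FPKM and 20.3% of 818 from 100 FPKM, where the separated loci were 75 on the uterus side and 91 on the mammary side. The FPKM + 1 scale limits the ratio that a locus of the lowest class can reach, since below 3 FPKM no locus can be 4-fold apart. The median absolute log2 ratio in these classes was 0.56, 0.42, 0.43 and 0.64, so the lowest class had a higher value than both middle classes. Levels in the lowest class rest on few reads, and the part of counting error in this order was not tested. Loci without an identifier are no members, and of 3555 with the same span and FPKM minimum, 6.86% were at least 4-fold higher in the uterus and 4.39% in the mammary gland.

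**Figure D1:**
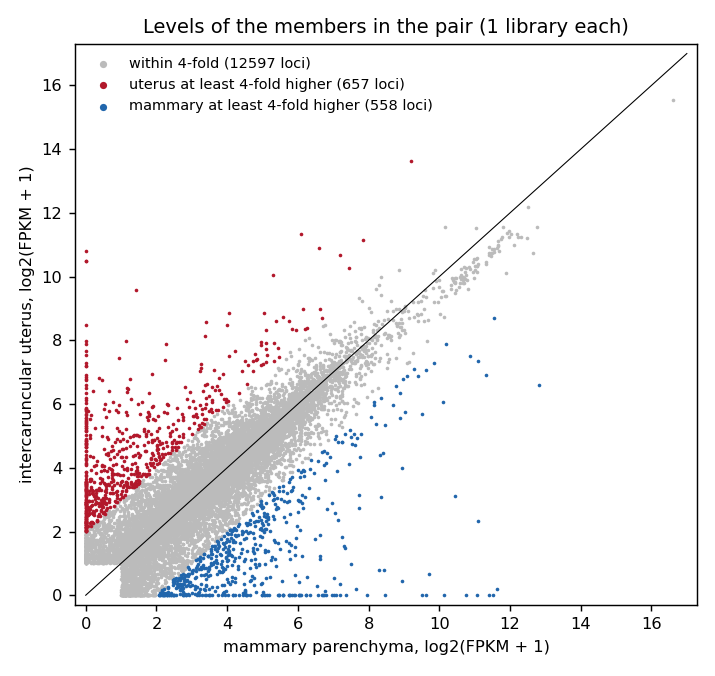
Transcript levels of the 13812 members, with log2(FPKM + 1) in the mammary parenchyma on the x axis and in the intercaruncular uterus on the y axis, 1 point per locus and the line of equal levels in black. The 657 red points were at least 4-fold higher in the uterus and the 558 blue points in the mammary gland, and the points along either axis are loci listed at 0 in one library.

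Of 463 members with at least 100 FPKM in both organs, 300 (64.8%) lay within 1.5-fold of each other, beside 58.2% of all members. The minimum in both leaves out loci that are low in one organ. The most abundant of them leaned to the mammary gland. Of 56 loci with at least 1000 FPKM in both, 54 were higher in the mammary gland, with a median log2 ratio of -0.69 and a range of -1.91 to 1.39. With both libraries at the same summed FPKM without mitochondrial loci, 53 of the 56 were higher in the mammary gland, with a median of -0.43. In the plot of levels they form the group below the line at the upper right.

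The same 4-fold count was made for each of the 28 pairs of tissues, each over its own members. The share of separating loci in the pair, 8.8%, was the lowest of the 28 values, which had a median of 21.6% and reached 37.0%. It was close to that of the mammary gland and the ileum, 8.84%. The order of these closest pairs depended on the loci counted. The shares over other sets of loci that follow were computed once these values were known. Over loci above 0 in both libraries the pair had 7.18% and the mammary gland and the ileum 6.98%. Over loci with at least 5 FPKM in either library they had 10.6% and 10.7%. Over the 8914 members with at least 1 FPKM in all 8 tissues they had 2.38% and 2.29%. Across those 8914 loci, Pearson's r of log2(FPKM + 1) was 0.896 for the pair and 0.900 for the mammary gland and the ileum, and across the members of each pair the value for the uterus and the mammary gland, 0.769, stood above the next one, 0.758 for the abomasum and the ileum. These coefficients are across loci, which are not independent replicates, and the values of the mammary gland enter both of the leading pairs.

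**Figure D2:**
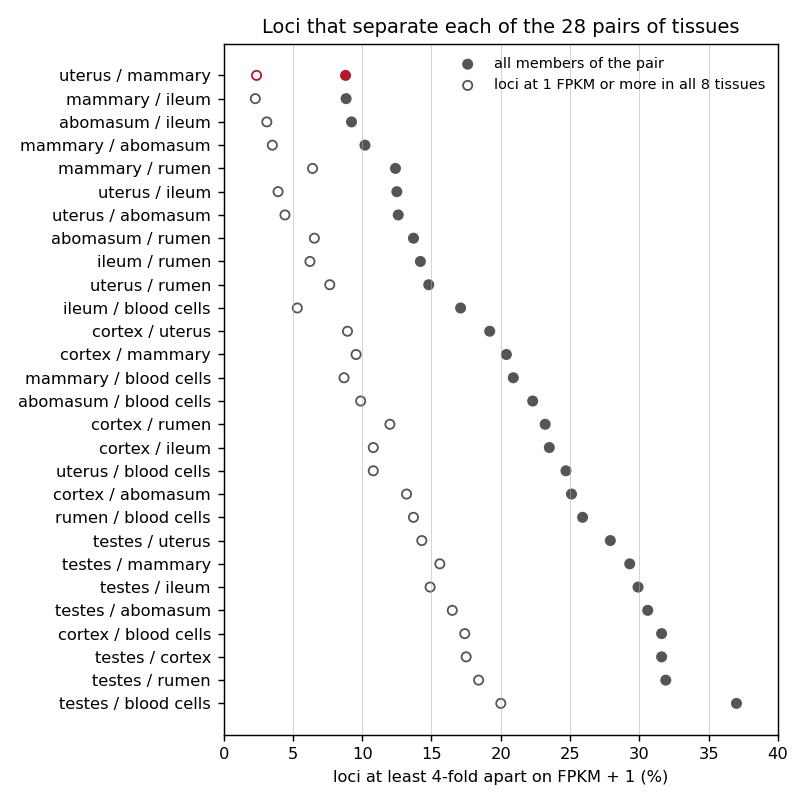
Share of loci at least 4-fold apart on FPKM + 1 (x axis, percent) for each of the 28 pairs of tissues (y axis), with 1 library per tissue. Filled points count the members of each pair and open points the loci at 1 FPKM or more in all 8 tissues, and the pair of uterus and mammary gland, in red, stands at 8.8% and 2.38%.

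Both organs of the pair lay nearest to the same tissues, in the order ileum, abomasum and rumen, and farthest from testes. Across 17422 loci used for every pair, r with the ileum was 0.813 for the uterus and 0.848 for the mammary gland, with the abomasum 0.803 and 0.825, and with the rumen 0.795 and 0.818. The values were 0.681 and 0.749 with nucleated blood cells. In frontal cortex and testes the order was turned, with 0.714 for the uterus and 0.693 for the mammary gland in cortex, and 0.546 and 0.523 in testes. The widest gap was that for nucleated blood cells.

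What the pair shared against the 6 other tissues was a small set. A locus was counted as shared high where the lower of the pair had at least 1 FPKM and stood at least 2-fold above the highest of the 6 others on FPKM + 1. This held for 52 members (0.376%). Among the 28 pairs, this count had a median of 50.5 and was highest, 466, for testes and frontal cortex, so the pair ranked at place 14. By any margin, 487 members were higher in both organs than in the 6 others. The count of 52 rose to 82 without the frontal cortex and to 80 without the ileum, and ran from 54 to 82 when each of the 6 other libraries was left out in turn. By the rule, leaving out a library can only keep or raise this count.

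The 52 loci had a median of 25.1 FPKM in the uterus and 22.1 FPKM in the mammary gland. Their medians in the others were 2.57 FPKM in the ileum, 2.32 in the abomasum, 1.64 in the rumen, 1.42 in testes, 1.37 in frontal cortex and 0.0357 in nucleated blood cells, where 23 of the 52 (44.2%) were listed at 0, beside 9.1% of all members; the rule itself asked for low levels there. The nearest of the other tissues was the ileum for 18 loci, the abomasum for 12, frontal cortex for 8, testes for 7, the rumen for 6 and nucleated blood cells for 1. Between the organs of the pair they lay about as far apart as members at large. Within 2-fold of each other were 37 (71.2%, beside 74.8% of all members) and at least 4-fold apart were 5 (9.62%, beside 8.8%), of which 3 were higher in the uterus. In all, 31 of the 52 were higher in the uterus, while all members lay close to equal levels, with a median log2 ratio of 0.02. The distance to the nearest other tissue had a median of 1.5 on the log2 scale, with a range of 1.01 to 5.76, and 17 loci stood at least 4-fold above all 6.

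Of the shared high loci, 3 were listed at 0 in all 6 other tissues. ENSBTAT00000041696, at chr18:58425828-58448792 (UMD3.1), had 53.2 FPKM in the uterus and 92.2 FPKM in the mammary gland and was listed at 0 in the 6 others. ENSBTAT00000044994, at chr1:5035870-5037857, had 39.8 FPKM and 49.1 FPKM and was likewise listed at 0 in the 6 others. Both were present in both organs, and no fold against the other tissues is given because their levels there were listed at 0. Their place as the most shared high loci rests on these zeros. A listed 0 can be a failed estimate, which was not tested, so absence in the other tissues is not established. A locus with a level in every library was that at chr5:21079623-21119087, chosen after its values were seen. It had 1175 FPKM in the uterus and 464 FPKM in the mammary gland, followed by 187 FPKM in the ileum, 127 in the rumen, 123 in testes, 110 in the abomasum, 15.4 in frontal cortex and 0.641 in nucleated blood cells. The levels of both organs stood above those of the 6 others, with the lowest value in blood.

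Loci low in the pair against all others were fewer. With the same 2-fold distance, 8 members (0.0579%) were lower in both organs than in the 6 others, beside a median of 6.50 and a highest value of 107 over the 28 pairs. By any margin the count was 413. All 8 were within 2-fold of each other in the pair, with medians of 3.37 FPKM in the uterus and 3.81 FPKM in the mammary gland against 12.2 FPKM in the rumen to 51.0 FPKM in testes. Without the frontal cortex the count was 31 and without nucleated blood cells 18, where the rule again allows no fall.

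ENSBTAT00000014209, at chr7:16298107-16300588, had 2.70 FPKM in the uterus and 3.79 FPKM in the mammary gland. In the others it had 11.4 FPKM in the abomasum, 12 in the rumen, 21.6 in the ileum, 45.4 in testes, 51.7 in nucleated blood cells and 79.3 in frontal cortex. ENSBTAT00000022619, at chr18:7719672-7753452, had 19.7 FPKM in the uterus, 24.6 FPKM in the mammary gland and 64.9 to 105 FPKM in the 6 others. None of the 8 loci reached a 4-fold distance, whereas 17 of the 52 shared high loci did.

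**Figure D3:**
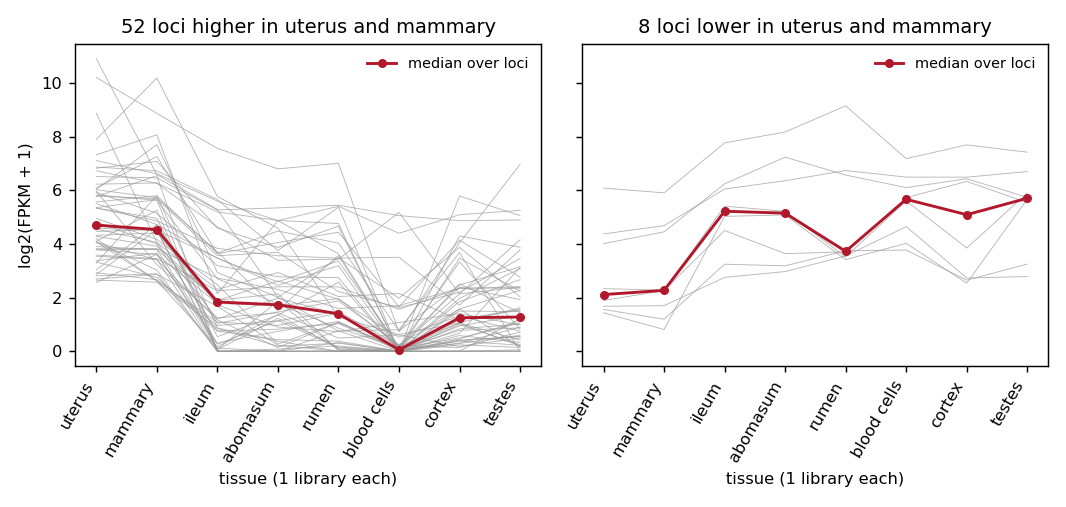
Levels of the 52 shared high loci (left) and the 8 shared low loci (right) in the 8 tissues on the x axis, as log2(FPKM + 1) on the y axis, with a grey line per locus and the median over loci in red (1 library per tissue). The uterus and mammary gland stand apart because the loci were chosen for that distance, and the median of the shared high loci is lowest in nucleated blood cells, at 0.0357 FPKM.

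The loci that separated the organs differed between the sides in where else they were transcribed. On the uterus side, 326 of 657 (49.6%) had their highest level of all 8 tissues in the uterus itself, 106 (16.1%) in testes, 90 (13.7%) in frontal cortex, 45 (6.85%) in the abomasum, 42 (6.39%) in the rumen, 30 (4.57%) in the ileum and 18 (2.74%) in nucleated blood cells. On the mammary side, 218 of 558 (39.1%) were highest in the mammary gland, 118 (21.1%) in nucleated blood cells, 61 (10.9%) in the rumen, 50 (8.96%) in the ileum, 42 (7.53%) in frontal cortex, 36 (6.45%) in testes and 33 (5.91%) in the abomasum. Over all members the highest level was in testes for 25.3%, in nucleated blood cells for 17%, in frontal cortex for 15.2%, in the rumen for 13.6%, in the abomasum for 9.61%, in the uterus for 9.40%, in the mammary gland for 5.99% and in the ileum for 3.91%. That the named organ leads its own side follows from how the sides were formed.

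The other tissues were also set against the lower organ of the pair. Of the 657 loci higher in the uterus, 199 (30.3%) were also at least 4-fold above the mammary gland in testes, 180 (27.4%) in frontal cortex, 119 (18.1%) in the ileum, 109 (16.6%) in the abomasum, 97 (14.8%) in the rumen and 61 (9.28%) in nucleated blood cells. Over all members these shares were 13%, 8.43%, 3.61%, 4.08%, 5.10% and 6.15%. Of the 558 loci higher in the mammary gland, 214 (38.4%) were at least 4-fold above the uterus in the ileum, 181 (32.4%) in nucleated blood cells, 143 (25.6%) in the rumen, 141 (25.3%) in the abomasum, 20.3% in frontal cortex and 19.4% in testes. The shares over all members were 5.92%, 7.64%, 5.97%, 4.50%, 7.63% and 11.9%. The low level of 1 library formed each side and enters every one of these counts, so they are a description only.

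**Figure D4:**
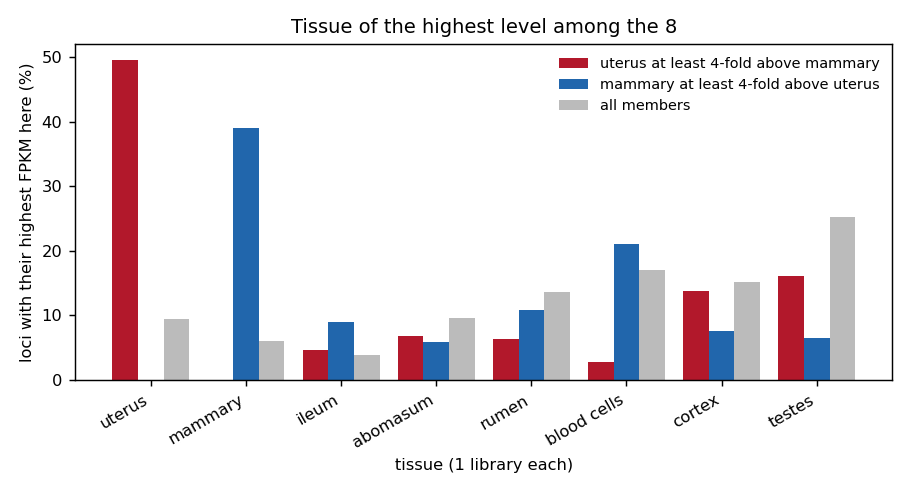
Tissue in which a locus had its highest FPKM among the 8 (x axis, 1 library each), as a percent of the 657 loci higher in the uterus (red), of the 558 loci higher in the mammary gland (blue) and of all 13812 members (grey). Nucleated blood cells hold the highest level of 21.1% of the mammary side, 2.74% of the uterus side and 17% of all members.

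On the uterus side the median level was 17.4 FPKM in the uterus, and 171 loci (26%) were listed at 0 in the mammary gland. A listed 0 can be a failed estimate, which was not tested, so these loci may not all be low there. The 486 loci above 0 in both had a median of 1.56 FPKM in the mammary gland. At least 100 FPKM in the uterus was reached by 75 loci and at least 1000 FPKM by 10. A set of 135 loci (20.5% of the side and 0.977% of members) stood at least 4-fold above all 7 other tissues in the uterus, and 20 were listed at 0 in all 7. At the other end, 106 loci of this side (16.1%) had at least 1 FPKM in each of the 6 tissues outside the pair, beside 65.1% of all members.

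Both identifiers with the largest ratio towards the uterus, among loci with a level above 0 in the pair, were low in every other library. ENSBTAT00000022630, at chrX:134046071-134157066, had 770 FPKM in the uterus and 1.68 FPKM in the mammary gland. In the other tissues it had 9.18 FPKM in frontal cortex, 6.76 in the rumen, 1.70 in the ileum, 1.43 in the abomasum, 0.824 in nucleated blood cells and 0 in testes. Its log2 ratio was 8.17. ENSBTAT00000014447, at chr6:106061463-106065759, had 251 FPKM in the uterus, 1.21 FPKM in the mammary gland and 0.153 to 2.57 FPKM in the others, with a log2 ratio of 6.83. Uterus stood far above all 7 other libraries at both loci.

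Of the 12 largest ratios towards the uterus, 11 were at loci listed at 0 in the mammary gland, and their other tissues differed widely. The locus at chr22:53432383-53437016 had 357 FPKM in the uterus and at most 0.795 FPKM, in frontal cortex, elsewhere. The locus at chr15:1802549-1889711 had 1767 FPKM in the uterus, 8501 FPKM in the abomasum and 1278 FPKM in nucleated blood cells, with the 5 remaining tissues listed at 0. At chr18:53634877-53659483 and chr5:111261438-111267705 the uterus had 1426 FPKM and 1425 FPKM, and frontal cortex had 3102 FPKM and 4653 FPKM. The rumen had 2786 FPKM at the second of these and was listed at 0 at the first. The table gives no transcript length for these loci, so the number of reads behind such values is unknown, and the part of short transcripts in them was not tested. A listed 0 can also be a failed estimate, so these ratios need not stand for low levels in the mammary gland.

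On the mammary side the median level was 21.6 FPKM in the mammary gland, and 93 loci (16.7%) were listed at 0 in the uterus. These zeros, too, can hold failed estimates. The 465 loci above 0 in both had a median of 1.62 FPKM in the uterus. At least 100 FPKM in the mammary gland was reached by 91 loci and at least 1000 FPKM by 15. A set of 60 loci (10.8% of the side and 0.434% of members) stood at least 4-fold above all 7 other tissues, and 10 were listed at 0 in all 7. At least 1 FPKM in each of the 6 tissues outside the pair was found for 133 loci of this side (23.8%), beside the same 65.1% of all members.

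ENSBTAT00000024253, at chr16:771153-781509, had 829 FPKM in the mammary gland and 0.570 FPKM in the uterus, with a log2 ratio of -9.05. It had 76.2 FPKM in nucleated blood cells, 27.4 in frontal cortex, 15.2 in the ileum, 12.7 in the abomasum, 5.80 in testes and 3.20 in the rumen. The uterus was the lowest of the 8 libraries at this locus. ENSBTAT00000063613, at chrX:148319908-148326780, had 2176 FPKM in the mammary gland and 4.05 FPKM in the uterus, a log2 ratio of -8.75. Its highest level was in the abomasum, at 3266 FPKM, and the 5 other tissues had 0 to 1.73 FPKM. It separated the pair as a transcript held in common with the glandular stomach.

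Of the 12 largest ratios towards the mammary gland, 8 were at loci listed at 0 in the uterus, where a 0 can likewise be a failed estimate. The locus at chr11:103301664-103306381 had 2720 FPKM in the mammary gland, 30.9 FPKM in frontal cortex and 25.2 FPKM in the rumen. The locus at chr10:13318875-13323526 had 1121 FPKM in the mammary gland, with all 7 others listed at 0. A locus with another profile, at chr19:42356580-42361460, had 789 FPKM in the mammary gland, 1356 FPKM in the rumen and at most 1.43 FPKM, in frontal cortex, in the other tissues. Loci given by position alone in this and the paragraphs on either side were chosen after their values were seen, apart from the windows with the most separating loci.

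Separating loci lay on all autosomes, from 6.01% of members on chromosome 7 to 15.4% on chromosome 4, and on the X chromosome the share was 7.11%. The mitochondrial chromosome is not in this range and is described below. In windows of 1 Mb (1 megabase), of which 2110 held members, 17 windows had at least 4 loci higher in the uterus and 15 had at least 4 higher in the mammary gland. Neighbouring loci are not independent, and 4414 members, 401 of them separating, had the same coordinates as another locus.

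The widest gap between the organs was on chromosome 6. In the window from 87 Mb, 5 of 10 members were higher in the mammary gland, at chr6:87141556-87469068. From the lower to the higher coordinate, their levels in the mammary gland were 2135, 2912, 10.4, 730 and 3166 FPKM. In the uterus 4 of the 5 were listed at 0 and the last had 0.135 FPKM. All 5 were highest in the mammary gland, and the highest level outside it was 5.40 FPKM, in testes, at the last locus. The identifier of that last locus also stands at another locus with the same coordinates, listed at 0 in both organs, so its level is uncertain. As background, the RefSeq table of the assembly ARS-UCD2.0 lists the casein genes CSN1S1, CSN2, CSN1S2 and CSN3 as near neighbours on chromosome 6. The table does not pair them with the identifiers of these loci, its assembly differs from that of the values, and the loci were not assigned to them. This neighbourhood was looked up after the levels had been seen.

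On chromosome 4, neighbouring windows held 6 of 21 and 8 of 25 members on the mammary side and none on the uterus side, at chr4:113669304-114428038. Levels in the mammary gland were 8.41 to 39.6 FPKM and in the uterus at most 6.29 FPKM. Of these 14 loci, 11 had their highest level in nucleated blood cells, 2, at the same coordinates, in the ileum and 1 in the mammary gland. At the locus with the highest level in blood, chr4:113910742-113941457, nucleated blood cells had 566 FPKM, the ileum 60.5, the mammary gland 31.9, the abomasum 6.85, testes 6.08, the uterus 2.93, the rumen 1.25 and frontal cortex 0.336. The order of blood, ileum, mammary gland and uterus was the same at all 11 loci. Outside these windows, 13.6% of 389 members on chromosome 4 were separating.

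A window with all of its separating loci highest in the ileum was found on chromosome 23. In the window from 25 Mb, 5 of 7 members were higher in the mammary gland, at chr23:25351283-25865701, with 81.3 to 667 FPKM in the mammary gland and 18.1 to 137 FPKM in the uterus. The ileum had 396 to 2404 FPKM and nucleated blood cells 283 to 1781 FPKM, and 2 of the 5 loci had the same coordinates. At all 5 loci ileum and blood stood above the mammary gland and the uterus below it. On chromosome 16, in the window from 5 Mb, 5 of 6 members were higher in the mammary gland, with 3.63 to 16.5 FPKM, and 4 of the 5 had the same coordinates.

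On the uterus side, the windows with the most separating loci lay on chromosomes 23, 19, 13 and 29. On chromosome 23, 8 of 31 members in the window from 31 Mb were higher in the uterus, with 4.92 to 95.9 FPKM, and 4 of them were highest in the uterus, while 2 other members were higher in the mammary gland. In the window from 19 Mb of the same chromosome, 6 of 8 members were higher in the uterus, with 3.96 to 83.8 FPKM, again with 4 highest in the uterus. On chromosome 19, 6 of 15 members in the window from 38 Mb were higher in the uterus, with 5.41 to 34.5 FPKM, and none was highest there. Of these 6, 4 were highest in the ileum and 2 in the abomasum, but the 2 of the abomasum had the same coordinates, as had 2 of the ileum, and the mammary gland had at most 2.36 FPKM. The other windows were on chromosome 13, with 5 of 16 members, a highest level of 355 FPKM in the uterus and 1 member on the mammary side, and on chromosome 29, with 5 of 17 and 32.5 FPKM. In each of these last windows 2 of the 5 loci had the same coordinates.

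**Figure D5:**
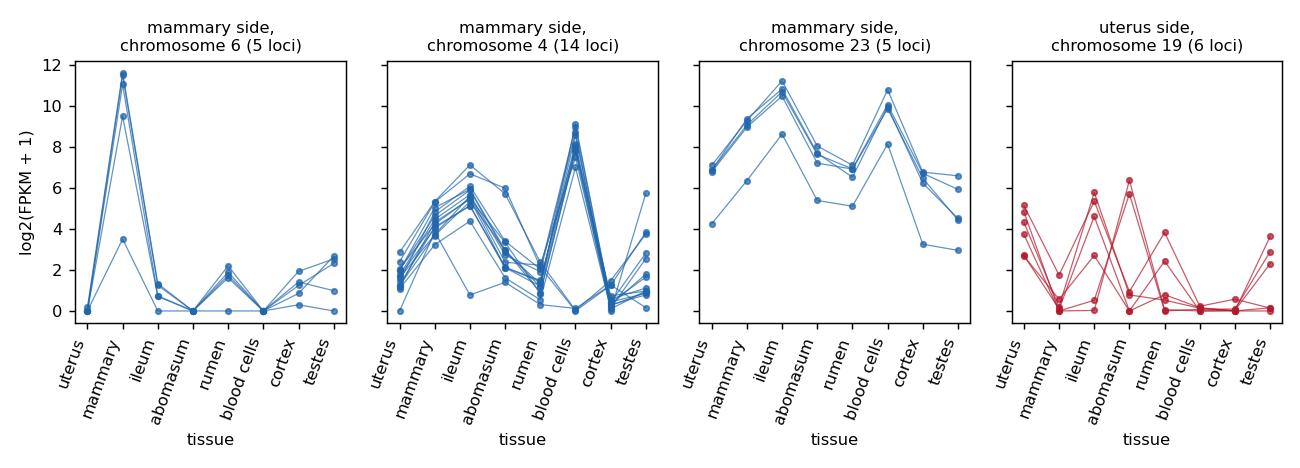
Levels of the separating loci in 4 regions of chromosomes 6, 4, 23 and 19, as log2(FPKM + 1) on the y axis in the 8 tissues on the x axis (1 library each), with a line per locus. On chromosome 6 the 5 loci are highest in the mammary gland, at up to 3166 FPKM, at a locus with a repeated identifier and an uncertain level. On chromosomes 4 and 23 the ileum or nucleated blood cells stand highest at all but 1 locus. On chromosome 19 the 6 loci of the uterus side are highest in the ileum or the abomasum.

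Mitochondrial transcripts were higher in the mammary gland. The locus of 12 identifiers on the mitochondrial chromosome had 47612 FPKM in the uterus and 100128 FPKM in the mammary gland, a log2 ratio of -1.07. The locus of 1 identifier had 161 FPKM in the uterus and 2183 FPKM in the mammary gland, 13.6-fold more. In the other tissues the first had 103757 FPKM in nucleated blood cells to 200924 FPKM in testes, above both organs of the pair. The second had 143 FPKM in the abomasum, below both organs, 700 FPKM in the ileum, between them, and 2556 FPKM in nucleated blood cells and 6106 FPKM in testes, above both. Frontal cortex and rumen were listed at 0 there, which can be a failed estimate, so they are left out of this order.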

How the data were processed

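Total RNA was extracted with TRIZOL and libraries were made with the TruSeq RNA Library Prep Kit v2, which does not mark strand, so overlapping genes on opposite strands cannot be told apart. The authors aligned single-end reads to the UMD3.1 assembly with TopHat2 2.0.13 and ran Cufflinks with its default settings. The deposited table lists FPKM, which that software scales between libraries, for every locus in every pair of tissues. It also holds the authors' log2 fold change, their test statistic (a score) and the p-value and q-value of each comparison of 1 library with 1. None of those columns were used.

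FPKM values were read for the libraries whose labels name the tissues. The coordinates of a locus are those of the table, 1-based, and can cover overlapping genes. Members, alternatives and gene lists were chosen with earlier results of these data known. Ratios are log2((FPKM + 1) / (FPKM + 1)), and folds are on that scale unless given as FPKM. The pair has 1573 members that name several identifiers and 913 with an identifier that stands at several loci, whose levels are uncertain, and 1 member carries a failed estimate in the authors' comparison.

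The loci named by identifier were the 2 with the largest ratio in each direction, above 0 in both libraries, with 1 identifier at 1 locus and at least 10 reads by an upper bound (FPKM times span times depth, which takes the span for the transcript length and removed no separating locus), and the 2 most shared high and 2 most shared low. Windows of 1 Mb with the most separating loci, up to 5 in each direction, were named by position. Lists of marker genes are not analysed here, since no table paired symbols with the identifiers.

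Depth was recovered from loci of 88 to 130 bases that carry no identifier, with fragment lengths of mean 200 and SD 80 bases and a lower limit of 87 bases. At the depth taken, 97.7% to 100% of these values came out as whole reads within 0.03. It is the depth scaled by the authors' software, not the number of mapped reads. The reads carry no molecular identifiers. The counting scripts were tested on simulated data with known folds. Python 3.11.15, pandas 2.3.3, NumPy 2.4.6, SciPy 1.17.1 and Matplotlib 3.10.9 were used. Alternatives covered the pseudocount, the filters on level and span, the fold, the scaling between libraries, repeated identifiers, the libraries left out and the loci at 0.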

Additional observations from a re-analysis of the deposited data

Results flagged for a closer look

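Loci without an identifier were outside the comparison of the members. Of 3555 such loci with the same span and FPKM minimum, 244 (6.86%) were at least 4-fold higher in the uterus and 156 (4.39%) in the mammary gland, so 400 lay at least 4-fold apart, 11.3% beside 8.8% of the members. Of them, 287 were listed at 0 in the lower library. The median level was 5.30 FPKM in the uterus on the uterus side and 6.85 FPKM in the mammary gland on the mammary side. The highest of the 8 tissues was the uterus for 165 of the 244 and the mammary gland for 64 of the 156, with nucleated blood cells highest for 22 of the 156. That the named organ leads its own side follows from how the sides were formed. The same shares over all 3555 loci were not computed, so these counts have no background to be set against.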

How the results depend on the processing

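No paired analysis was possible because no tissue had more than 1 library. Without a filter on low values the members numbered 22808. Of the loci 4-fold apart (657 uterus side, 558 mammary side), there were 1183 and 1039 with a pseudocount of 0.1, 1230 and 1089 with 0.01, 297 and 288 with at least 1 FPKM in both, 1848 and 1636 at 2-fold, and 273 and 224 at 8-fold. Leaving out loci that share coordinates, an alternative added after the data were seen, gave 428 on the uterus side and 386 on the mammary side. Shared high loci (52) numbered 110 at 1.5-fold and 17 at 4-fold, and 54 to 82 with each other library left out. Shared low loci (8) numbered 33 and 0, and 8 to 31. Leaving out a library can only keep or raise the counts of shared loci. The share of uterus-side loci highest in the uterus was 37.4% at 2-fold and 57.9% at 8-fold, and that of the mammary side in the mammary gland 25.4% and 57.1%. Windows with at least 4 loci rose at 2-fold from 17 to 86 for the uterus and from 15 to 94 for the mammary gland. In all, 26 values moved past the limits set (1.5 times for a count) and 47 did not. For r the limit was 0.137, the SD of r over the 28 pairs, and for the mitochondrial ratios it was the SD of all ratios. Some of the 47 could hardly move, such as the counts with at least 10 reads by the upper bound, which removed no separating locus. A reversal was defined only for named identifiers at least 4-fold apart, so none could be recorded among the other values. For the 8 named identifiers, 31 values stayed and 1 moved. The alternatives were too small to turn the sign of their largest ratios. With the same summed FPKM, 62.7% of separating loci were higher in the uterus, beside 54.1%. The list alternative was not run because identifiers were not paired with symbols. Depth limits levels near 1 FPKM, more so in the mammary gland.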
